A study of Mus musculus with 6 samples.

Results

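The comparison described here is the difference between 2 responses: the change that stimulation brought in natural regulatory T cells (nTregs) lacking YAP, less the change it brought in wild type (WT) nTregs. nTregs, sorted as CD4+ cells with high CD25 and either level of CD62L, came from lymph nodes and spleens of C57BL/6 mice. The YAP cKO animals are YAP flox/flox, CD4-Cre+, so the deletion is driven by the CD4 promoter, runs through the T cell lineage and is not limited to nTregs; the labels give no Cre for the WT animals. Both genotypes were measured as freshly sorted cells and after culture in wells coated with 2 µg/ml of anti-CD3, with 2 µg/ml of anti-CD28 in solution and 100 U/ml of IL-2. One label text gives 24 h for the culture and another gives 48 h. Ages and the number of mice behind a library are not given.

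Total RNA was sequenced in 6 libraries in all, and 4 of them enter this comparison: fresh WT, fresh cKO, stimulated WT and stimulated cKO, with 1 library in each group. No difference below therefore has a replicate check or a test. For each gene the change was the difference of log2(FPKM + 1) between stimulated and fresh cells, and the difference of the responses was the cKO change minus the WT change. FPKM is fragments per kilobase of transcript scaled by library depth. Of 23962 named genes, 11511 had an FPKM of 1 or more in at least 1 of the 4 libraries and were kept. The last gene kept, Jpx, reached 1.00 FPKM, and the first one left out, Fbxo36, reached 0.9999 FPKM.

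YAP, encoded by Yap1, is a transcriptional co-activator that enters the nucleus when the Hippo kinase cascade is inactive and acts there through the DNA-binding TEAD factors. Regulatory T cells carry the factor Foxp3 and the IL-2 receptor chain CD25, and restrain other T cells. Engagement of their antigen receptor with CD28 and IL-2 starts growth and division, during which the replication-dependent histone genes are transcribed in S phase.

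Yap1 RNA gave no check of the genotype labels. It is listed at 0 FPKM in both fresh libraries, and it was at 0.169 FPKM in stimulated WT and 0.235 FPKM in stimulated cKO cells. The value columns name the second genotype YKP, which was read as cKO by elimination, so every cKO value here is that of a YKP column. The nTreg label held in all 4 libraries. Foxp3, the factor that defines Tregs, was at 46.6 FPKM in fresh WT, 45.9 in fresh cKO, 56.9 in stimulated WT and 57.8 in stimulated cKO cells. Il2ra, the gene of CD25, went from 75.3 to 295 FPKM in WT and from 63.7 to 285 FPKM in cKO cells. Ctla4 and Ikzf2, both typical of Tregs, and Cd4 had differences of the responses of 0.12, -0.06 and -0.04. These Treg-defining genes were thus at similar levels in the genotypes at both times.

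The 2 genotypes responded to stimulation in much the same way. In WT cells 722 genes (6.27%) had a change of 1 or more, which is 2-fold on the FPKM + 1 scale, and 828 (7.19%) a change of -1 or less. In cKO cells the numbers were 758 (6.59%) and 783 (6.8%). The difference of the responses was 1 or more in 98 of 11511 genes (0.851%) and -1 or less in 109 (0.947%). Of all genes, 91.5% lay within 1.5-fold of equal responses, and the median difference was 0.04. Of the genes past 2-fold 47.3% were on the higher side. Scaling each library to an equal FPKM sum moved the median of all genes to -0.10 and that share to 30.0%, so 0 is not a fixed line. The list counts below are of differences above 0, beside 55.2% of all genes above 0, and lists whose median changes sign are named.

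Most of the 207 genes past 2-fold stood on little RNA. In 104 of them the highest of the 4 values was under 5 FPKM. Features shorter than 300 nt, such as micro RNA and small nucleolar RNA, gave 22 of the higher and 21 of the lower genes although they were 70 of all genes, and the SD of the difference across them was 5.33. Pairs of unrelated short features shared 1 value to 3 decimals in the same library: Mir1668 and Mir20a were both at 382.624 FPKM in fresh WT cells. The highest and lowest genes and the genes shared by both genotypes are therefore named from the 8794 with at least 5 FPKM in 1 library and a transcript of at least 300 nt, antigen receptor segments left out. Members of gene lists are named from 1 FPKM, and some of them stay under 5 FPKM. In the 8794 genes the SD of the difference was 0.31, and 43 genes (0.489%) had a difference of 1 or more and 20 (0.227%) of -1 or less. Of these 63 genes, 60 had a 95% interval from fragment counting alone that lay clear of 0. A gene for which no interval could be computed is counted among the rest. The interval covers neither the spread between mice nor the division of fragments among near copies, described below. Across the 8794 genes the changes in WT and cKO had a Pearson r of 0.92 and a Spearman rho of 0.88, as a description over genes that share 4 libraries.

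**Figure D1:**
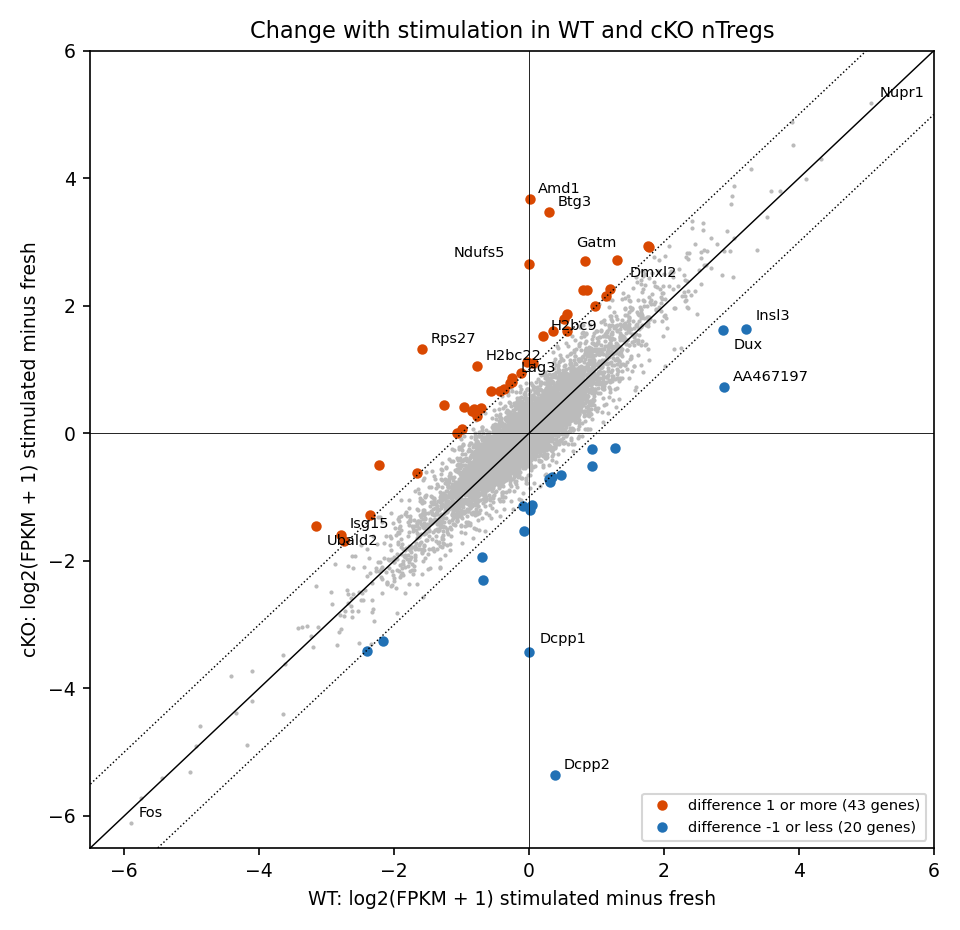
Change of log2(FPKM + 1) from fresh to stimulated nTregs in WT (x axis) and cKO (y axis) for 8794 genes, 1 point per gene, with the line of equal change and dotted lines at a difference of 1 and -1. Most points follow the line from Fos at the lower left to Nupr1 at the upper right, with 43 genes at or above the upper dotted line and 20 at or below the lower one.

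Of the 6 genes with the largest induction in both genotypes, 4 changed by nearly the same amount in each. Nupr1, a stress-induced chromatin protein, is listed at 0 FPKM in both fresh libraries and reached 32.6 FPKM in stimulated WT and 35.2 in stimulated cKO cells. Asns, which makes asparagine, went from 1.90 to 57.5 FPKM in WT and from 2.44 to 67.3 in cKO cells. Slc39a8, a zinc importer, went from 2.34 to 56.6 and from 2.89 to 60.9 FPKM. The differences of the responses were 0.11, -0.03 and -0.11 for these 3 genes, so the 2 genotypes nearly met. Ctla2a, a protease inhibitor, also kept close, with a difference of 0.08. Emp1, an epithelial membrane protein, went from 2.32 to 49.1 FPKM in WT and from 3.74 to 108 in cKO cells, a difference of 0.61. Ccl3, a chemokine, went from 0.509 to 21.5 and from 0.896 to 54.9 FPKM, a difference of 0.98.

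Genes lost in both genotypes were led by immediate early and feedback genes. Fos, a subunit of the AP-1 factor, went from 351 to 4.88 FPKM in WT and from 401 to 4.79 in cKO cells. Tnfaip3, a feedback inhibitor of NF-kappaB, went from 894 to 15.7 FPKM in WT and from 902 to 16.2 in cKO cells. Dusp1, a phosphatase of MAP kinases, went from 366 to 7.49 and from 461 to 9.94 FPKM. The differences for these 3 were -0.21, 0.04 and 0.03. Fosb, Ppp1r15a and Sik1 had differences of -0.28, 0.03 and 0.29. These transcripts were high in freshly sorted cells and at 16.2 FPKM or less after culture, in WT and cKO alike.

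Over all 11511 genes, 493 had a change of 1 or more in both genotypes and 581 a change of -1 or less in both. The 493 induced genes had a median change of 1.43 in WT and 1.63 in cKO cells, and 353 of them (71.6%) had the larger change in cKO, against 55.2% of all genes with a difference above 0. For the 581 lost genes the median changes were -1.55 in WT and -1.49 in cKO, and 52.8% had a difference above 0. The shared induction was thus larger in the cKO pair by a median of 0.15, while the shared loss differed by 0.01. Both groups were chosen on the 2 changes that make up the difference. The first of these values depends on scaling: among the 8794 better measured genes 72.7% of the induced ones lay above 0 as deposited, 68.5% after median of ratios scaling and 46.5% after scaling to equal FPKM sums. Counted against the median of all genes instead of 0, the share was 65.7%, 66.7% and 62.2%. For the lost genes the share above that median was 40.9%, 43.6% and 39.9%. Relative to the median of all genes, more of the lost genes thus fell further in cKO under each scaling.

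Over all 11511 genes the cKO level was 2-fold above WT in 69 (0.599%) in fresh and 132 (1.15%) in stimulated cells, and 2-fold below in 43 (0.374%) and 77 (0.669%). Some genes passed 2-fold in 1 genotype and not in the other. In the 8794 genes 482 (5.48%) were up and 666 (7.57%) down in WT, and 564 (6.41%) up and 611 (6.95%) down in cKO. Among them 168 were up in cKO alone and 86 in WT alone, and 120 were down in cKO alone and 175 in WT alone. Equal FPKM sums turned the first pair around, to 252 and 632, and the second to 71 and 46, so these counts carry no direction that holds across scalings.

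Of the 43 genes with a difference of 1 or more, 10 are histone genes of the list described further on. Of the others with the highest differences, 4 with no near copy were at 1.87 FPKM or less in both fresh libraries. Gatm (chromosome 2, 122594473 to 122611277 in GRCm38.p6), the enzyme that starts creatine synthesis, was at 0.0475 FPKM in fresh WT and is listed at 0 in fresh cKO cells. It was at 0.858 FPKM in stimulated WT and 5.49 in stimulated cKO cells, a difference of the responses of 1.87 with a counting SE of 0.25. The 2 fresh libraries and stimulated WT thus lay under 1 FPKM, and stimulated cKO cells stood apart. Dmxl2, which helps assemble the vacuolar proton pump, was at 0.0694, 0.147, 1.65 and 6.54 FPKM in fresh WT, fresh cKO, stimulated WT and stimulated cKO cells, a difference of 1.41. In the same order Slc37a2, a sugar phosphate exchanger, was at 1.04, 1.71, 2.70 and 11.9 FPKM, a difference of 1.38. Igfbp7, a secreted protein that binds insulin-like growth factors, was at 1.87, 0.931, 4.01 and 8.21 FPKM, a difference of 1.45. All 4 were higher after culture in WT as well, and stimulated cKO cells had the highest level of each.

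Tmem256, a small membrane protein, followed another course. It was at 19.3 FPKM in fresh WT and 18.6 in fresh cKO cells, and then at 9.39 in stimulated WT and 25.2 in stimulated cKO cells, a difference of 1.39. The fresh libraries nearly met, and after culture the level was lower in WT and higher in cKO. Of the 43 genes, 17 had a change above 0 in both genotypes, 6 a change below 0 in both, and 20 a change above 0 in cKO and at or below 0 in WT. Over the 8794 genes the cKO level was 2-fold above WT in 45 (0.512%) in fresh and 96 (1.09%) in stimulated cells, and 2-fold below in 19 (0.216%) and 27 (0.307%). In 24 of the 43 the genotypes were 2-fold apart in stimulated cells alone, in 2 in fresh cells alone, in 3 at both times and in 14 at neither. Spp1 (osteopontin), a secreted phosphoprotein, was singled out after its values were seen: it was at 0.167 and 0.0882 FPKM in fresh WT and cKO cells and at 3.01 and 7.25 in stimulated ones, a difference of 1.14.

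**Figure D2:**
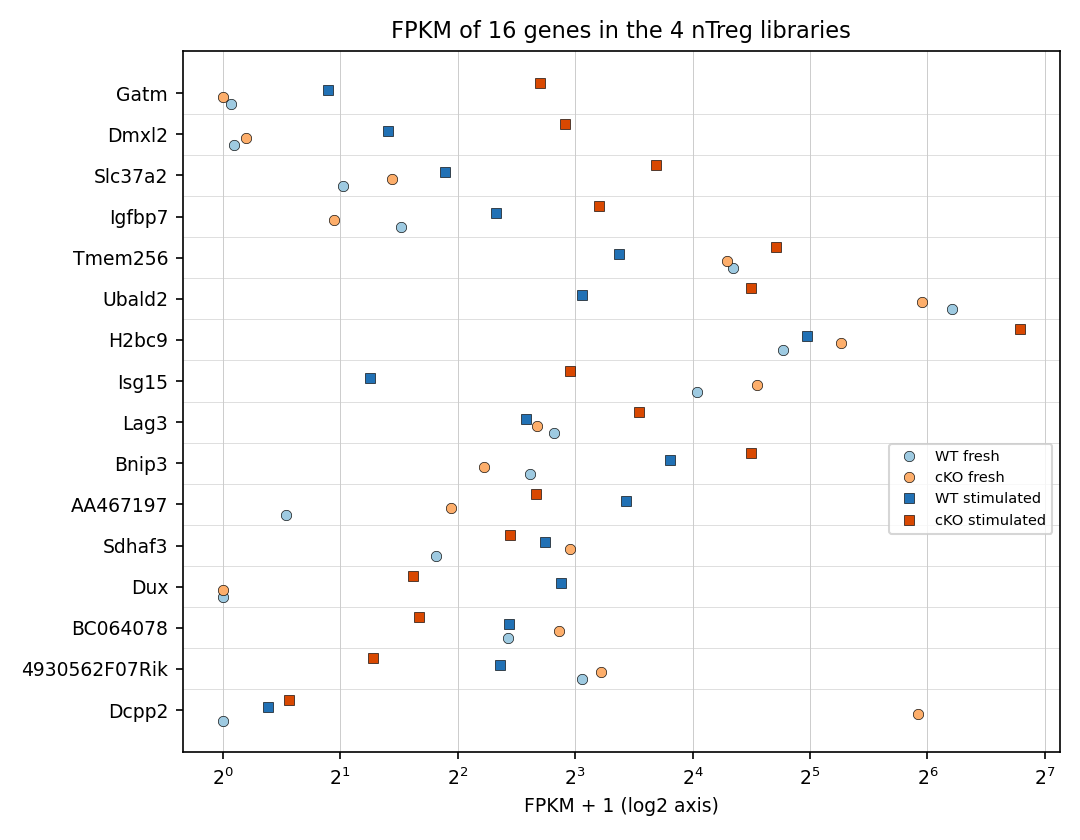
FPKM + 1 on a log2 axis for 16 genes in the 4 libraries, circles for fresh and squares for stimulated cells, blue for WT and orange for cKO, 1 library per symbol. For Gatm, Dmxl2, Slc37a2 and Igfbp7 the stimulated cKO library lies furthest to the right, and for Dcpp2 the fresh cKO library stands alone at 59.6 FPKM.

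Several of the largest differences belong to genes with a near copy elsewhere in the genome, among which fragments can be divided. Amd1, which makes the substrate for polyamine synthesis, was under 0.05 FPKM in both fresh libraries and stimulated WT and at 12.2 FPKM in stimulated cKO cells, a difference of 3.65. Of its 31-base words, 91.3% also occur in Amd2, and Amd2 was at 58.2, 65.8, 43.8 and 32.6 FPKM in the order above. Summed, Amd1 and Amd2 had a difference of -0.14. Rps27, a ribosomal protein gene, had a difference of 2.89 alone and 0.11 with Rps27rt, which holds 98.7% of its words. Btg3, an antiproliferative gene, had 3.17 alone and 0.37 with the transcribed pseudogene Gm7334. Slc28a2b, a nucleoside carrier, had 1.71 alone and 0.62 with Slc28a2. That summed pair was lower in cKO at both times, at 66.2 FPKM in fresh WT and 23.7 in fresh cKO cells. In stimulated WT and cKO cells it was at 21.5 and 11.7 FPKM. Ubald2 had 1.70 alone and 0.45 with Gm7367, which holds 29.7% of its words. So of the 14 highest differences 5 were under 1 once the copy was added.

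Ndufs5, a subunit of respiratory complex I, kept its place. It was at 16.3 FPKM in fresh WT, 4.37 in fresh cKO, 16.2 in stimulated WT and 33.0 in stimulated cKO cells. With its pseudogene Ndufs5-ps the levels were 16.9, 16.3, 17.4 and 56.7 FPKM, and the difference went from 2.67 to 1.69. The stimulated cKO library then stood alone, above the other 3, which lay close together. Ly6c2, a surface protein of memory T cells and myeloid cells, changed sign, from -1.61 alone to 0.81 summed with Ly6c1.

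**Figure D3:**
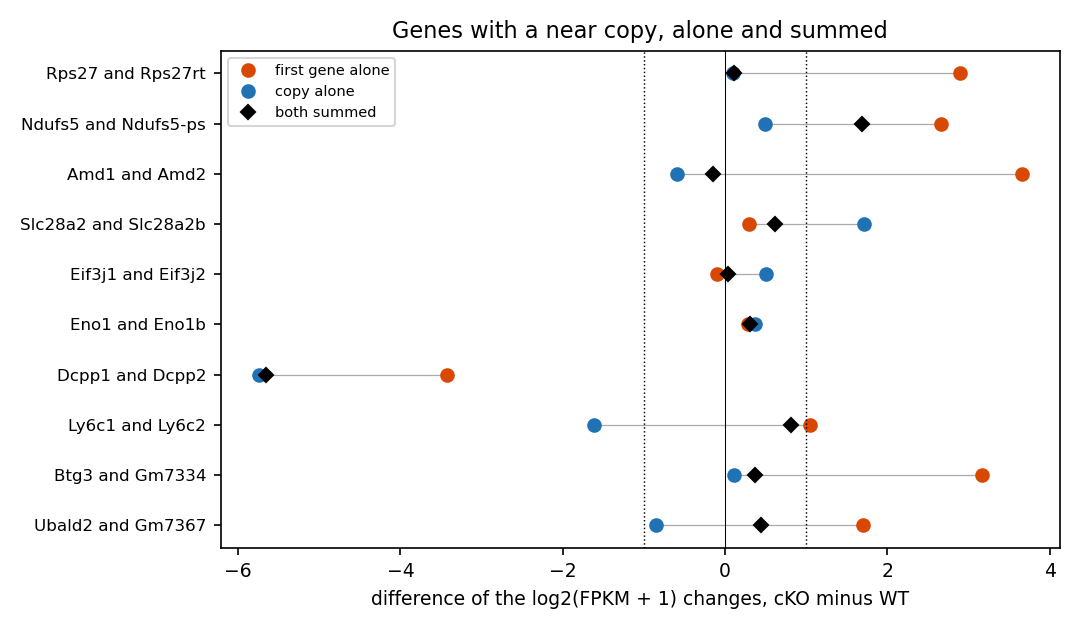
Difference of the responses (x axis, log2 scale, cKO minus WT) for 10 pairs of a gene and its near copy, with the first named gene alone as an orange circle, the second as a blue one and the summed FPKM of the pair as a black diamond; dotted lines mark 1 and -1. Summing brings Amd1, Btg3, Rps27, Slc28a2b and Ubald2 inside the dotted lines and leaves Ndufs5 and the Dcpp pair outside.

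Genes with a difference of -1 or less numbered 20 as deposited, against 43 on the higher side. With equal FPKM sums they were more, 46 against 27. A difference of this sign can be a smaller rise or a deeper fall in cKO. Dcpp2 and Dcpp1, secreted proteins of salivary gland, had the lowest differences, -5.74 and -3.42. Dcpp2 is listed at 0 in fresh WT cells and was at 59.6 FPKM in fresh cKO, 0.307 in stimulated WT and 0.476 in stimulated cKO cells. Dcpp1 is listed at 0 in both WT libraries and was at 14.8 FPKM in fresh cKO and 0.470 in stimulated cKO cells. Both differences come from the fresh cKO library alone. In that library Bpifa2, a secreted salivary and airway protein, was also highest, at 5.32 FPKM against 1.86 in fresh WT, 1.70 in stimulated WT and 1.19 in stimulated cKO cells. A list of 14 salivary gland genes, made after these values were seen, summed to 81.1 FPKM in fresh cKO cells. In the other 3 libraries it summed to between 3.81 and 4.38 FPKM. Dcpp2, Dcpp1 and Bpifa2 are in the list and make up nearly all of the fresh cKO sum, which is thus no separate observation. Of the 14, 4 were measured, 3 of them 2-fold lower and 1 with a difference above 0. Dcpp3 and Smgc were at 0 in all 4 libraries. The part of salivary tissue in the fresh cKO library was not tested.

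AA467197, a gene that hosts a micro RNA, was at 0.450 FPKM in fresh WT, 2.85 in fresh cKO, 9.78 in stimulated WT and 5.36 in stimulated cKO cells. Its difference was -2.17, with the cKO pair higher in fresh and lower in stimulated cells. The gene lies at 122637887 to 122641076 on chromosome 2 (GRCm38.p6), near Gatm and near Slc28a2b at 122484941 to 122528040, whose differences had the opposite sign. Sdhaf3, an assembly factor of respiratory complex II, was at 2.52 and 6.79 FPKM in fresh and at 5.71 and 4.44 FPKM in stimulated WT and cKO cells, a difference of -1.45.

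Dux and Insl3 were at or near 0 in fresh cells and reached a higher level in WT after culture. Dux, a double homeobox factor of the early embryo, is listed at 0 in both fresh libraries and was at 6.36 FPKM in stimulated WT and 2.07 in stimulated cKO cells, a difference of -1.26. Insl3, a hormone of the relaxin family, was under 0.01 FPKM in both fresh libraries and at 8.27 and 2.12 FPKM in stimulated cells, a difference of -1.57. Both values are uncertain as levels of these genes, since 72.3% of the words of Dux occur in other genes and 63.1% of those of Insl3 occur in Jak3 transcripts. Of the 20 genes, 11 had a change below 0 in cKO and at or above 0 in WT, and 1 reached 20 FPKM in any library, against 20 of the 43 higher genes. The remaining named genes, Gm10416, 4930562F07Rik, BC064078, AI506816, Rps15a-ps4 and AA465934, stayed under 10 FPKM in each library and had differences from -1.503 to -1.12. The intervals for counting reached 0 for Rps15a-ps4 and AA465934.

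Opposite changes, at least 1.5-fold up in 1 genotype and 1.5-fold down in the other, were rare. Over 11511 genes 7 were up in cKO and down in WT, and 7 were down in cKO and up in WT. With 5 FPKM and 300 nt required, 2 were left in the first direction, Rps27 and H2bc22, and 0 in the second. H2bc22, a histone H2B gene, was at 6.37 FPKM in fresh WT, 16.98 in fresh cKO, 3.33 in stimulated WT and 36.3 in stimulated cKO cells. The cKO pair was the higher at both times, and the difference of the responses was 1.82 with a counting SE of 0.55. The level of H2bc22 is uncertain, since 77.9% of its words occur in other genes. The counting SE does not cover the division of fragments among them. Summed over the H2B genes of the histone list, the difference was 0.40.

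Of the 22 gene lists, the replication-dependent histone genes had the most members past 2-fold. Their short, uniform messages end in a stem loop instead of a poly(A) tail, so a library of total RNA can hold them. Of 49 measured genes 37 had a difference above 0 and 12 below, 10 were 2-fold higher and 1, H3c13, 2-fold lower, against 0.851% and 0.947% of all genes. The median was 0.43, against 0.04 for all genes. It stayed between 0.32 and 0.44 over the alternatives run, the lowest with genes centred on others of like GC content. Short transcripts as a whole differed more often. The 70 features under 300 nt, of which 22 were 2-fold higher and 21 lower, are left out of the counts that follow. Of 143 genes with a main transcript of up to 500 nt, histone genes among them, 16 were 2-fold higher and 13 lower, with a median of 0.25. Of 809 genes between 500 and 1000 nt, 21 were higher and 36 lower, with a median of 0.07. The part of transcript length in the histone values was not tested. H3c13 was at 0.643, 4.07, 4.09 and 4.45 FPKM in fresh WT, fresh cKO, stimulated WT and stimulated cKO cells, so fresh WT alone was low.

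Summed levels were highest in the stimulated cKO library in each histone class. All 51 genes found summed to 1853 FPKM in fresh WT, 2438 in fresh cKO, 3117 in stimulated WT and 5804 in stimulated cKO cells. The cKO library was the higher at both times, by 0.40 on the log2 scale in fresh and 0.90 in stimulated cells, which leaves a difference of the responses of 0.50. By class the difference was 0.69 for H4, 0.57 for H3, 0.53 for H2A, 0.40 for H2B and 0.30 for the linker histone H1. The share of a gene's words found in other genes went from 0.281% in H1f1 to 94.2% in H3c10, and 4 of the 5 H1 genes were at 11.4% or less. For genes with a high share the class sums are the firmer values.

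Among single genes H2bc9 was at 26.3 FPKM in fresh WT, 37.3 in fresh cKO, 30.5 in stimulated WT and 109 in stimulated cKO cells, a difference of 1.32. H4c8 was at 84.3, 92.6, 125 and 284 FPKM in the same order, a difference of 1.04. H2ac4 was at 9.23, 13.4, 14.2 and 51.7 FPKM, a difference of 1.30. In each of the 3 genes the stimulated cKO library was at least 2-fold above every other library. H2ac7, which the list does not hold, was at 4.08, 3.998, 1.12 and 5.78 FPKM, a difference of 1.70 that stands on few fragments.

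The promoters of 2 of these genes are shown because most histone genes differed in one direction and histone promoters carry shared elements; these 2 genes and the elements were chosen after their values were seen. They are the RefSeq promoters of GRCm38.p6, 250 bases before to 50 after the start, with the element CCAAT on either strand in capitals. H2bc22 lies at chr13:21787238-21787537 on the plus strand and holds 4 such places, and H2bc9 at chr13:23543395-23543694 on the minus strand holds 3.
H2bc22: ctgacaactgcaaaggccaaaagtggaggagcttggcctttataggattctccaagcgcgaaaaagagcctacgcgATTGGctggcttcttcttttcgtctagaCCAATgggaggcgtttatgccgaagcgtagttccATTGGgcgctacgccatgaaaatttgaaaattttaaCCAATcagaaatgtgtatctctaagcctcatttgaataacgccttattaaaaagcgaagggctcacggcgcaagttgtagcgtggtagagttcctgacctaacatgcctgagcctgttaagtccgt
H2bc9: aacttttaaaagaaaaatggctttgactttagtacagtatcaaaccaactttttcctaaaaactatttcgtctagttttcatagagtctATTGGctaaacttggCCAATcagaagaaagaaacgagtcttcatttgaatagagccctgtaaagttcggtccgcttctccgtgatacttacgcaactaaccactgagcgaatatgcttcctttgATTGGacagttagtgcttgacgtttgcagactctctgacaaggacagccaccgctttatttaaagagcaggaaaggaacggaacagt
Of 45 measured histone genes with a promoter in the table, 84.4% held CCAAT, against 39.9% of the 9197 promoters of all measured genes. The share was 81.8% of the 33 histone genes with a difference above 0 and 91.7% of the 12 below 0. All 12 H2B promoters in the table held it, and 41.7% held the octamer ATTTGCAT, against 1.44% of all measured genes. The TATA box TATAAA was in 62.2% of the histone promoters and 7.15% of all. The CCAAT element was frequent both in those below 0 and in those above.

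**Figure D4:**
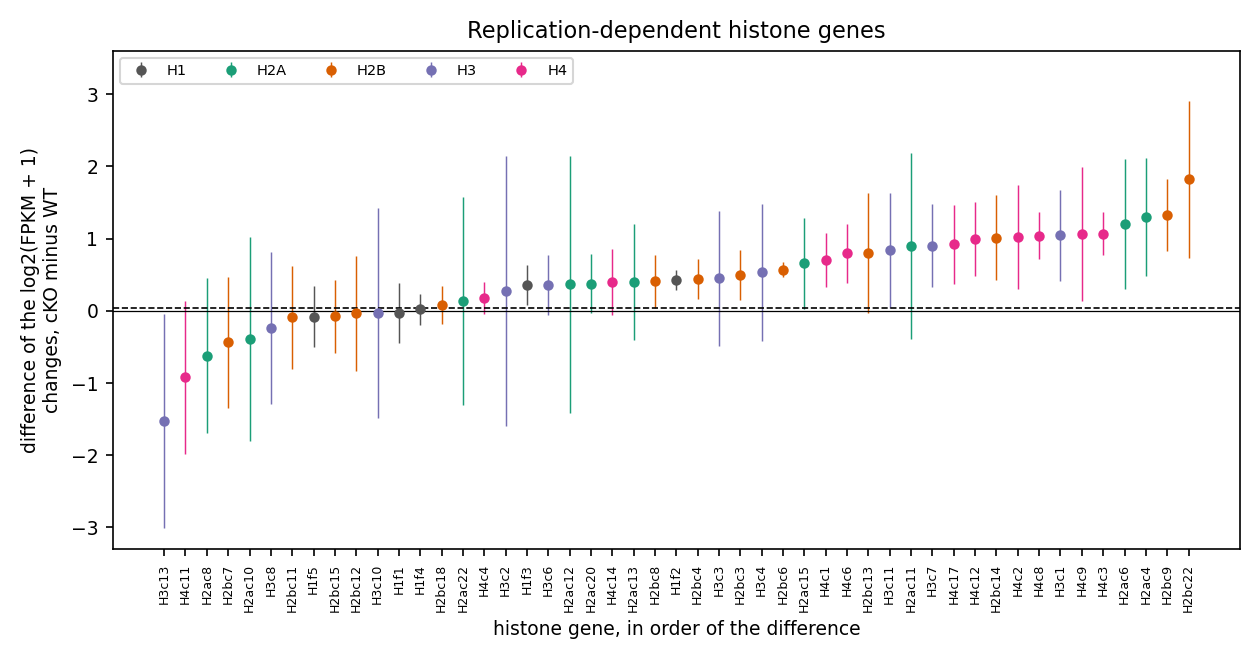
Difference of the responses (y axis, log2 scale, cKO minus WT) for 49 replication-dependent histone genes in order of the difference, coloured by class, with bars for the 95% interval of fragment counting and a dashed line at the median of all genes, 0.04. H2bc22 lies highest at 1.82, H4 genes reach 1.06, and H3c13 alone lies below -1, at -1.53.

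Cell cycle genes leaned the same way by smaller amounts. Of 40 proliferation genes, all measured, 35 had a difference above 0 and 5 below, 0 were past 2-fold, and the median was 0.26. Their median change with stimulation was 1.27 in WT and 1.498 in cKO. Aurkb, a mitotic kinase, was at 0.932 and 1.29 FPKM in fresh WT and cKO cells and at 5.10 and 11.1 in stimulated ones, a difference of 0.74. Mcm2, a subunit of the replicative helicase, went from 16.3 to 24.0 FPKM in WT and from 16.1 to 34.7 in cKO cells, a difference of 0.54. Kif20a, a mitotic kinesin, and Tk1, which makes thymidine monophosphate, had differences of 0.66 and 0.53. For the whole list the cKO library was the higher already in fresh cells, by a median of 0.32, and by 0.55 in stimulated cells.

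Lists of growth and stress genes had medians from 0.09 to 0.22, all lower with equal FPKM sums. Of 22 glycolysis genes 18 lay above 0 and 1 was 2-fold higher, with a median of 0.22 (0.08 with equal FPKM sums). That gene was Bnip3, a mitophagy receptor induced by low oxygen, at 5.12, 3.68, 13.03 and 21.6 FPKM in fresh WT, fresh cKO, stimulated WT and stimulated cKO cells, a difference of 1.07. The glycolytic enzymes Aldoa and Pgk1 had differences of 0.52 and 0.49. Of 24 genes of the amino acid and unfolded protein response 19 lay above 0, with a median of 0.21 (0.05 with equal FPKM sums). Sesn2, a leucine sensor of the mTORC1 pathway, Creld2 and Sdf2l1, which act in the endoplasmic reticulum, and Xbp1, a factor of the unfolded protein response, had differences of 0.96, 0.95, 0.88 and 0.74. The list of cholesterol and fatty acid synthesis had 20 of 28 above 0 and a median of 0.17 (0.05 with equal FPKM sums), with Mvk, Fasn and Scd2 at 0.65, 0.55 and 0.52. Genes of the list of ribosome biogenesis and Myc targets had a median of 0.09, which was -0.05 after scaling to equal FPKM sums. In it Rrp12, Cad, Polr1c and Ldha had 0.56, 0.50, 0.47 and 0.41.

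Interferon-stimulated genes were lower after culture in both genotypes, with a median change of -0.95 in WT and -0.81 in cKO. All 32 were measured, and nearly equal numbers were 2-fold lower after culture, 14 in WT and 13 in cKO. The difference of the responses was above 0 in 23 and below 0 in 9, with a median of 0.23 (0.11 with equal FPKM sums), and 1 gene was past 2-fold. Isg15, a ubiquitin-like modifier, was at 15.5 FPKM in fresh WT, 22.4 in fresh cKO, 1.38 in stimulated WT and 6.78 in stimulated cKO cells, a difference of 1.20. Bst2, which tethers virus particles, went from 54.2 to 26.9 FPKM in WT and from 53.7 to 47.2 in cKO cells, a difference of 0.80. Ifi44 had 0.99 at levels under 2 FPKM and Ifit3b 0.80. Guanylate-binding and immunity-related GTPases, which interferon gamma induces, had a median of 0.03, which was -0.11 with equal FPKM sums. Gbp2b and Gbp2 had opposite signs, -0.85 and 0.36, Irgm1 had 0.34 and Gbp3 -0.34.

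Genes of Treg function differed less. Of 34 genes of the Treg signature 22 lay above 0, 0 were past 2-fold and the median was 0.15. Capg, an actin-capping protein, went from 159 to 367 FPKM in WT and from 165 to 594 in cKO cells, a difference of 0.64. Itgb8, an integrin chain that activates TGF-beta, and Izumo1r, a folate receptor family member of Tregs, had 0.64 and 0.55. Gzmb, a granzyme, was at 9.80 FPKM in fresh WT, 42.9 in fresh cKO, 8.94 in stimulated WT and 20.2 in stimulated cKO cells. Its difference of -0.93 therefore goes with a fresh cKO level that was already high, and the cKO library was above WT at both times. Among checkpoint receptors, 10 of 15 above 0 with a median of 0.12 (-0.02 with equal FPKM sums), Lag3 was the gene past 2-fold. Lag3 was at 6.07, 5.41, 4.97 and 10.7 FPKM in fresh WT, fresh cKO, stimulated WT and stimulated cKO cells, a difference of 1.11. Pdcd1, the gene of PD-1, and Cd200 had 0.74 and 0.56, and Cd86 -0.40.

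Receptor and cytokine lists were mixed. With equal FPKM sums the medians given here were 0.03 for TCR-induced, 0.06 for IL-2 and STAT5 and 0.06 for cytotoxic genes, and that of the Treg signature was 0.01. The list of TCR-induced genes had 18 of 24 above 0 and a median of 0.17, with Ier3 at 0.68, Zbtb32 at 0.54, Bcl2a1d at 0.46 and Cd44 at 0.42. The IL-2 and STAT5 list had 13 of 20 above 0 and a median of 0.20. In it Lta (lymphotoxin), the feedback inhibitor Socs1 and the chemokine receptor Ccr8 had 0.78, 0.71 and 0.61. Of 20 cytokines and chemokines 9 lay above 0 and 11 below, with a median of -0.03 that was 0.14 with 5 FPKM and 300 nt required. Within that list Ccl3 and Ccl4, which attract T cells and macrophages, had 0.98 and 0.84, and Ccl1, the ligand of Ccr8, had -0.85. Ifng was at 17.7 FPKM in fresh WT, 33.2 in fresh cKO, 4.02 in stimulated WT and 15.6 in stimulated cKO cells, a difference of 0.86. The cytotoxic list had 8 of 11 above 0, a median of 0.20, and Nkg7 and Ctsw at 0.78 and 0.37. Klrd1 had 0.85 with a highest level of 1.21 FPKM. The 95% counting intervals of Klrd1, Ier3, Ccl1 and Ccl4 reached 0, as did those of Tk1, Mvk, Bad and Gadd45a in the other lists.

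Lists of other T cell genes stayed near the median of all genes. Helper lineage genes had a median of 0.06, which was -0.10 with 5 FPKM and 300 nt required and also below 0 with equal FPKM sums, with Il12rb2 and Il12rb1 (chains of the IL-12 receptor) at 0.75 and 0.73 and Il18r1 at -0.61. Trafficking receptors had 0.06, -0.03 with equal FPKM sums, with Gpr15, Cxcr6 and Itga4 at 0.73, 0.69 and -0.65. NF-kappaB genes had 0.10 and -0.03 with equal FPKM sums, with Relb, Nfkb2, Bcl3 and Rela at 0.73, 0.57, 0.48 and 0.31. Apoptosis regulators had 0.09 and -0.03, with Bmf at 0.93 and Bad at 0.51 and the inflammatory caspases Casp1 and Casp4 at -0.89 and -0.55. Casp4 was at 28.0 and 6.73 FPKM in fresh and at 23.1 and 3.37 FPKM in stimulated WT and cKO cells. Casp1 was likewise lower in cKO at both times. The list of naive and quiescent T cell genes had 12 of 27 above 0 and a median of -0.08. In it S1pr1, which lets T cells leave lymph nodes, Klf3 and Nsg2 had -0.56, -0.47 and -0.43, and Il7r had 0.63.

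The pathway that the deletion targets showed small differences. Of 28 YAP-TEAD target genes 13 were measured, and the best known of them, Ccn1, Ccn2 and Ankrd1, were under 1 FPKM in all 4 libraries. In the 13 the median was 0.15 with 9 above 0, and -0.04 over the list with no filter on low values. Axl, a receptor tyrosine kinase, had 0.66 and Gadd45a 0.42, while Cdc42ep3 and Fgf2 had -0.73 and -0.58. Of 20 measured Hippo components 9 lay above 0 and the median was -0.07, with Stk38l at 0.63, Nf2 at 0.26, Stk38 at -0.21 and Lats2 at -0.19. The TGF-beta and activin list had 14 of 20 above 0 and a median of 0.10, -0.03 with equal FPKM sums. Fst (follistatin), which binds activin, was the gene of that list past 2-fold, at 0.192, 0.0508, 0.680 and 3.15 FPKM in fresh WT, fresh cKO, stimulated WT and stimulated cKO cells, a difference of 1.49. Acvr1c, an activin receptor, went the other way, from 0.339 to 3.29 FPKM in WT and from 0.483 to 1.47 in cKO cells, a difference of -0.94. Smad3 and Tgfbr3 had 0.42 and 0.36.

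**Figure D5:**
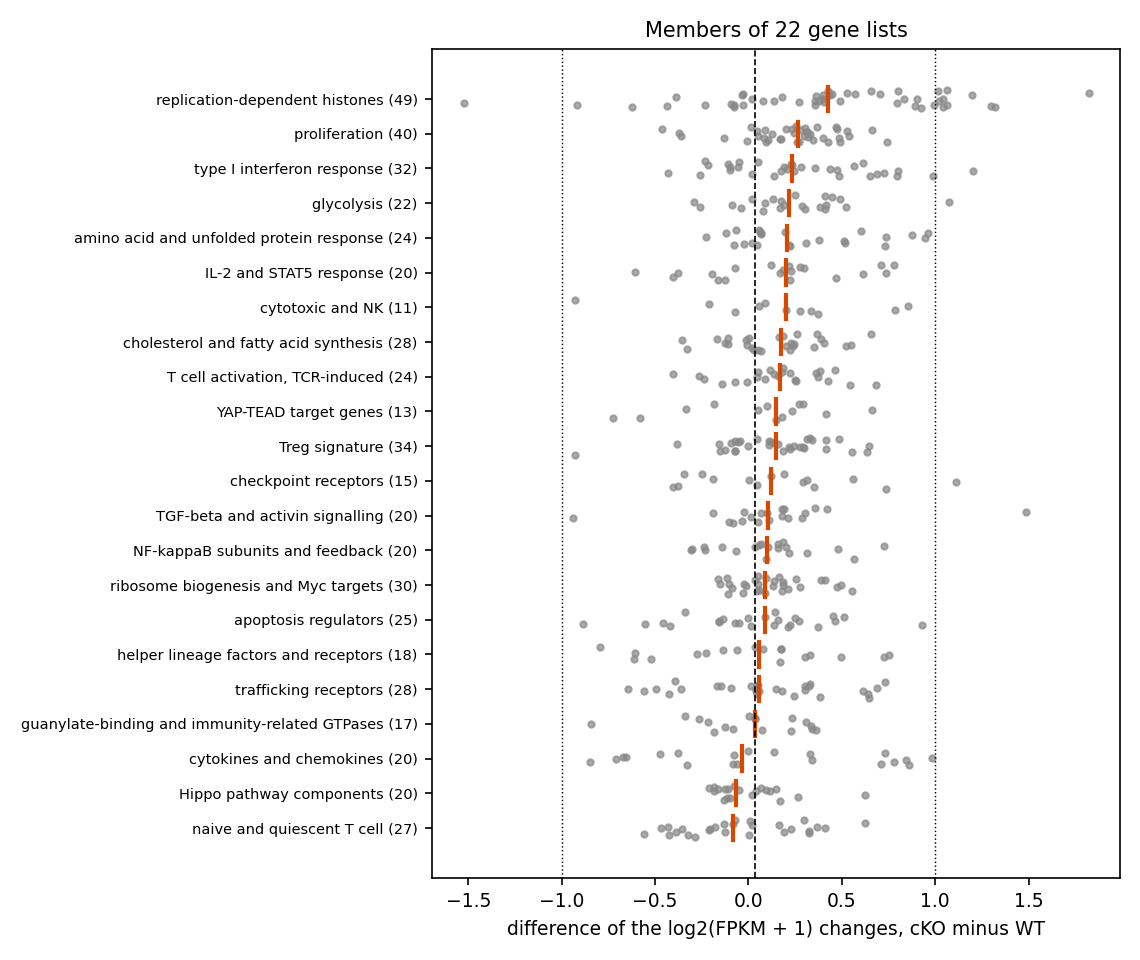
Difference of the responses (x axis, log2 scale, cKO minus WT) for the measured members of 22 gene lists, 1 grey point per gene and an orange bar at each list's median, with the number of members in brackets; the dashed line is the median of all genes and dotted lines mark 1 and -1. Histone and proliferation genes have the highest medians, 0.43 and 0.26, and the lists of Hippo components and naive T cell genes the lowest, -0.07 and -0.08.

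Motifs were counted in the same 300-base RefSeq promoters, on both strands, for the factors the question and the stimulus involve. The TEAD element GGAATG was in 14.3% of the 56 promoters found for genes at least 2-fold higher, in 18.2% of the 66 found for genes at least 2-fold lower and in 11.2% of the promoters of all measured genes. For the AP-1 element TGANTCA the shares were 3.57%, 7.58% and 4.64%, and for the NFAT core GGAAA, which shares its first 4 letters with GGAATG, 64.3%, 48.5% and 59.5%. With 5 FPKM and 300 nt required, 34 promoters of higher and 15 of lower genes were found, and the shares were 8.82% and 13.3% for TEAD, 2.94% and 13.3% for AP-1 and 64.7% and 33.3% for NFAT. With so few promoters in these groups each gene moves a share by more than 1 point. Slc37a2 and Dmxl2, the named genes with larger change and no near copy that lie on chromosome 9, were chosen after their values were seen and are printed with AP-1 and NFAT matches in capitals. Slc37a2 (chr9:37255689-37255988, minus strand) held 1 AP-1 and 3 NFAT matches and Dmxl2 (chr9:54501577-54501876, minus strand) held 0 and 1.
Slc37a2: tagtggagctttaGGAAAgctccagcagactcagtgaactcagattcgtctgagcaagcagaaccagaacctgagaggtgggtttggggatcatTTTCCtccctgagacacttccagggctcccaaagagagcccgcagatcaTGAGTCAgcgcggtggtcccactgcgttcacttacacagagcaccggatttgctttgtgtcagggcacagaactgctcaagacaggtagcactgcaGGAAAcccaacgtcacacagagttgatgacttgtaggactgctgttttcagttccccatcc
Dmxl2: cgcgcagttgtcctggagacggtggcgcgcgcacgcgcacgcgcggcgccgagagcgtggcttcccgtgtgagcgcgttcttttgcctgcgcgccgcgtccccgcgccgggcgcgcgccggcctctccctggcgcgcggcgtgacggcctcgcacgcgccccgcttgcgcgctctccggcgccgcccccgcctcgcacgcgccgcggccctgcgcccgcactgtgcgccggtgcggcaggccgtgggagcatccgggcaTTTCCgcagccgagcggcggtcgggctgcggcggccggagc
A match is a run of letters in this window and is no record of binding.

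Libraries differed in ways that move with these values. Of 23962 named genes, 9289 and 9086 were listed at 0 in fresh WT and cKO cells. In stimulated WT and cKO cells the numbers were 4108 and 4861, so many genes went from 0 to some value after culture. On a 1 kb transcript 1 fragment was worth between 0.110 and 0.143 FPKM, stimulated WT being the shallowest, so 5 FPKM on 2 kb stood on 69.7 to 91.2 fragments. Short features and receptor segments held 29.1% and 27.3% of the FPKM sum in fresh WT and cKO cells and 12.5% and 13.2% in stimulated ones. Genes of GC-rich transcripts had higher differences: the median went from -0.13 at 40% GC or less to 0.16 above 60%. Across 11254 genes the Spearman rho of GC with the genotype difference was 0.02 in fresh and 0.32 in stimulated cells, as a description. After centring by GC, list medians were 0.32 for histones, 0.22 for proliferation and 0.18 for interferon genes. Other lists came closer to 0: glycolysis to 0.11, the amino acid and unfolded protein response to 0.11, IL-2 and STAT5 to 0.10, the cytotoxic list to 0.12, TCR-induced genes to 0.10, cholesterol synthesis to 0.12, TGF-beta to 0.04, ribosome biogenesis to 0.03 and NF-kappaB to 0.02. Nuclear-retained RNA had a median of -0.17, with Malat1 at 3921, 3589, 1650 and 1295 FPKM in fresh WT, fresh cKO, stimulated WT and stimulated cKO cells. Xist was at 30.0 and 21.1 FPKM in WT and at 3.21 and 3.43 FPKM in cKO libraries, fresh first, while Y-linked Ddx3y was between 33.2 and 79.0 FPKM in all 4. The part of these differences between libraries in the results was not tested.

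Markers of other cells were also counted, beside the salivary genes described above. B cell markers, 6 of 15 found measured, summed to 51.7 and 42.7 FPKM in fresh WT and cKO cells and to 13.7 and 14.2 in stimulated ones, with Pax5 and Ms4a1 under 1 FPKM in all 4 and a median difference of 0.48. Myeloid markers, 8 of 20 measured, summed to 48.8 to 64.7 FPKM, most of it Cst3, and had a median difference of 0.36, which was -0.67 with 5 FPKM and 300 nt required. S100a8, a neutrophil gene, is listed at 0 in fresh cells and was at 0.614 FPKM in stimulated WT and 1.92 in stimulated cKO cells. The CD8 list had 1 of 2 genes measured, with a difference of 0.12, and the stromal list 1 of 10, Pecam1, with -0.17. Erythroid and platelet markers summed to under 4 FPKM in each library and had no measured member. In bulk RNA, fewer cells of a type and less RNA per cell cannot be told apart. Immediate early and stress genes, 17 measured, had a median of 0.11 (-0.05 after GC centring), and Hspa1a, a heat shock gene, was at 4.39 FPKM in fresh WT, 11.9 in fresh cKO, 0.204 in stimulated WT and 0.354 in stimulated cKO cells, a difference of -1.09.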

How the data were processed

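Strand-specific libraries of 322 ng ribosome-depleted total RNA, amplified in 12 PCR cycles, were sequenced per the labels' protocols. The submitters' processing notes name FastQC, TopHat, Cuffdiff, Cuffnorm and the mm10 build; versions, and whether strand was used in counting, are not given in the sources used here. The deposited values are FPKM per transcript, normalised across all libraries by the authors, and hold no counts. Depth was estimated from the steps between low FPKM values after 122 nt were taken off each length, and counting errors and 95% intervals rest on that estimate.

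Of 32860 table lines, 165 repeated an identifier with identical values and were used once. Of 32547 transcripts, 32101 took their gene symbol from the RefSeq annotation of GRCm38.p6, because 3495 deposited symbols were NA and 46 were dates. Another 397 kept the deposited symbol and 49 had none. FPKM was summed over the transcripts of a symbol, genes at 1 FPKM or more in any of the 4 libraries were kept, and 1 was added before taking log2 (Python 3.11.15, pandas 2.3.3, numpy 2.4.6; figures with matplotlib 3.10.9). The code was tested on simulated data. With 1 library per group there is no test.

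Named genes are the 14 highest and 14 lowest differences at 5 FPKM or more and 300 nt or more, up to 4 members of each list with the largest absolute difference, up to 6 genes per group of opposite, induced or lost changes, near copies, and 6 checks of labels and sort. Genes named outside that rule (Spp1, H4c8, Malat1, Xist, Ddx3y, Hspa1a, S100a8, Cst3, Pecam1, Jak3, Mir1668, Mir20a and those in the closing observations) were chosen after their values were seen. Also named outside that rule were H3c10, H1f1, Ccn1, Ccn2, Ankrd1, Pax5, Ms4a1, Dcpp3, Smgc, Jpx and Fbxo36. The gene lists and the rule were chosen with earlier results of these data known. Near copies were found by shared 31-base words. Alternatives changed the pseudocount, filters, scaling, transcript summing, gene names, thresholds, GC centring and near copies. Some named genes are not reported here.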

Additional observations from a re-analysis of the deposited data

Results flagged for a closer look

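In 14 genes the cKO pair changed at least 1.5-fold one way and the WT pair at least 1.5-fold the other way. None of these differences was tested, since each group is 1 library. Up in cKO and down in WT were Mir6363 with a difference of 13.74, Snora31 with 9.23, Rps27 with 2.89, 1700120K04Rik with 2.02, 1700124L16Rik with 1.84, H2bc22 with 1.82 and Arl6 with 1.57. Down in cKO and up in WT were Snora16a with -11.39, 2210417A02Rik with -2.12, 1700110K17Rik with -1.95, 4933417D19Rik with -1.74, 4732416N19Rik with -1.72, 4930539J05Rik with -1.52 and Kdelr3 with -1.23. Mir6363, Snora31 and Snora16a are small RNAs shorter than 300 nt. H2bc22 and Rps27 were the 2 genes with at least 5 FPKM and 300 nt, and Rps27 had a difference of 0.11 once its near copy was added. The level of H2bc22 is uncertain too, since 77.9% of its words occur in other genes.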

How the results depend on the processing

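No paired analysis was possible because each group is 1 library and the labels carry no replicate numbers; no replicate could be left out either. As analysed, 98 genes had a difference of 1 or more, called larger below, and 109 of -1 or less, called smaller. In both genotypes 493 were induced and 581 lost, and 7 and 7 changed oppositely. Among genes past 2-fold the genotypes were 2-fold apart in stimulated cells alone in 91 and in fresh cells alone in 39. In the order of those 8 counts, where a count moved by over 1.5 times, the values were as follows. A pseudocount of 0.5 gave 150 larger, 197 smaller, 13 and 17 opposite, and 161 and 63 in stimulated and fresh cells alone. A pseudocount of 5 gave 38, 21, 182, 339, 3, 1, 31 and 18. A minimum of 5 FPKM gave 64 larger, 39 smaller, 4 and 1 opposite, and 47 and 23 in stimulated and fresh cells alone. Equal FPKM sums gave 182 smaller, 1440 induced, 242 lost and 147 in stimulated cells alone, and 11 of 22 lists, in place of 19, had a median above 0. Leaving out short features gave 24 in fresh cells alone. Taking the highest transcript in place of the sum gave 255 larger, 201 smaller, 21 and 30 opposite, and 201 and 83 in stimulated and fresh cells alone. Exchanging the fold thresholds of 2 and 1.5 gave 531, 447, 1233, 1413, 2, 1, 419 and 150. Alternatives added after seeing the data were the deposited symbols, with 12 and 13 opposite, GC centring, summed near copies, and 5 FPKM with 300 nt, with 43 larger, 20 smaller, 2 and 0 opposite, and 28 and 8 in stimulated and fresh cells alone.

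Of the named genes' differences, 1632 values stayed within their counting interval, 94 moved and 4 changed sign: Amd1 at -0.59 and AI506816 at 0.32 with the deposited symbols, and Amd1 at -0.14 and Ly6c2 at 0.81 with near copies summed. The cause of other moves was not tested. The histone list has no value under the deposited symbols. Fewer than 3 fragments on 1 kb, 0.329 to 0.430 FPKM by library, cannot be told from 0.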

Other observations

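Some further genes past 2-fold, chosen after their values were seen, belong to no list above. Rfc4, a subunit of the clamp loader of DNA replication, was at 8.19 FPKM in fresh WT, 5.92 in fresh cKO, 7.97 in stimulated WT and 14.01 in stimulated cKO cells, a difference of 1.15. H2ax, the histone variant phosphorylated at DNA breaks, was at 11.1, 13.5, 10.2 and 26.8 FPKM in that order, a difference of 1.07. Both were highest in stimulated cKO cells and close together in the other 3 libraries. Cers6, a ceramide synthase, was at 5.19, 7.21, 2.49 and 9.43 FPKM, a difference of 1.17, and Plac8, a small cysteine-rich protein, at 9.23, 11.9, 12.1 and 38.2 FPKM, a difference of 1.25. Cpe, a carboxypeptidase that trims peptide hormones, was at 2.38 and 1.60 FPKM in fresh and at 10.5 and 18.9 FPKM in stimulated WT and cKO cells, a difference of 1.18. On the lower side was Cxcl10, a chemokine induced by interferons, which fell further in cKO. It was at 14.96, 19.1, 2.02 and 0.895 FPKM, a difference of -1.01, while Isg15 had a difference of 1.20. These values have no replicate check.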
